A study of Mus musculus with 39 samples.

Results

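The axoneme is the microtubule core that beats inside a cilium or a sperm tail. It was followed here through 44 genes chosen by name, as their transcripts appeared in mouse testes cultured in vitro and in testes developing in the animal. Genes were taken when the array platform's symbol began with Dnah, Dnai, Dnaic, Dnali, Rsph, Tekt, Cfap or Spag6, or was Spag16, Spag17, Hydin or Tcte3, and a probe had a detection p-value below 0.01 on 3 or more arrays. By name, 97 probes for 54 genes qualified. The detection rule left 62 probes for 44 genes, of 23665 detected probes and 12518 named genes on the whole array. The 44 genes comprised 10 axonemal dynein chains, 4 radial spoke proteins, 4 central apparatus proteins, 3 tektins and 23 cilia and flagella associated proteins (Cfap). They lay on 15 chromosomes. The 10 genes left out had a probe detected on 1 array (Rsph4a) or on 0 (Cfap36, Cfap97d2, Cfap298, Cfap300, Dnah5, Dnah6, Dnah9, Dnah10 and Spag17). Just inside the rule, on 3 arrays, were Dnah1, Cfap100, Dnaic2 and Cfap97d1, with highest raw signals of 113.7, 136.5, 268.5 and 890.2. Just outside, on 2 arrays, were further probes of Cfap61 and Cfap20dc, with highest signals of 92.63 and 94.54.

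Total RNA of whole mouse testis was hybridized to single-colour Illumina bead arrays. Testes placed in culture at 7.5 days post partum (dpp) were taken after 2, 4, 6, 7, 9 and 14 days, which correspond to ages of 9.5, 11.5, 13.5, 14.5, 16.5 and 21.5 dpp. Testes that had developed in vivo were taken at those same ages and at 7.5 dpp. Each of the 13 groups had 3 samples, of which 2 arrays were used for 13.5 dpp in vivo, 38 arrays in all. The labels used here name no strain, genotype, medium or agent for any group, and do not say whether replicates are separate animals. The p-values therefore measure the spread between these samples, which may be technical. The tissue is bulk testis: fewer cells of a type and less RNA per cell cannot be told apart.

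In the mouse, the first wave of spermatogenesis runs in near synchrony after birth, from spermatogonia through meiotic spermatocytes to haploid spermatids, and the tail is built in spermatids. Its axoneme has outer doublet microtubules around a central pair. Dynein motors on the doublets slide them past each other, radial spokes carry signals inward to the central apparatus and back, and tektins and other inner proteins stiffen the doublet wall. Germ cells begin to transcribe many axoneme genes in meiosis, before any tail exists.

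The promoters of 4 genes, chosen after the matches were seen as promoters that hold one, 3 from genes first called at 14.5 dpp in vivo (Spag6l, Tekt1 and Spag16) and 1 from a gene first called at 21.5 dpp (Dnaic2), are shown from 250 bases before to 50 bases after the annotated start (RefSeq, mouse build GRCm38.p6). Capitals mark matches to GTTGCC, the half-site read by RFX factors that drive ciliary genes in animals, and to TAACNG, the site read by MYB factors, of which A-MYB acts in mouse spermatocytes. Both strands were searched. Spag6l lies at chr16:16829314-16829613 on the minus strand, Tekt1 at chr11:72361833-72362132 on the minus strand, Spag16 at chr1:69826720-69827019 on the plus strand and Dnaic2 at chr11:114727169-114727468 on the plus strand.
Spag6l: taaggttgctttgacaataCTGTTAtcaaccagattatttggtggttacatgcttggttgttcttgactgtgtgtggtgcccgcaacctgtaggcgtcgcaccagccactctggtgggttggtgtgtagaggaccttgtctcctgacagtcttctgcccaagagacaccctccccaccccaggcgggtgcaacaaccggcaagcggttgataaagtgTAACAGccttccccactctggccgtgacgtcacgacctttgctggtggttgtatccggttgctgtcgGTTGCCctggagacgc
Tekt1: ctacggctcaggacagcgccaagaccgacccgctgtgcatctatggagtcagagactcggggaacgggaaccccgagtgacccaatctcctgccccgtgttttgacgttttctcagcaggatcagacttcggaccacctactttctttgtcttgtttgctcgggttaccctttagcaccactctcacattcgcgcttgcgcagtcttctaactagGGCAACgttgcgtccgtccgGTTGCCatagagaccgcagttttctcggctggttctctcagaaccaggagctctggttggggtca
Spag16: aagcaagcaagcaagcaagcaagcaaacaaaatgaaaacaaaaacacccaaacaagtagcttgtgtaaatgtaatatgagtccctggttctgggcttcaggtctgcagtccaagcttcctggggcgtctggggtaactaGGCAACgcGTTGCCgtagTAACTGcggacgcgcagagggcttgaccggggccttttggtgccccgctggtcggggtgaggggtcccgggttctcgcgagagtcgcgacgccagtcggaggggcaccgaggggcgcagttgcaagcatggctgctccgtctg
Dnaic2: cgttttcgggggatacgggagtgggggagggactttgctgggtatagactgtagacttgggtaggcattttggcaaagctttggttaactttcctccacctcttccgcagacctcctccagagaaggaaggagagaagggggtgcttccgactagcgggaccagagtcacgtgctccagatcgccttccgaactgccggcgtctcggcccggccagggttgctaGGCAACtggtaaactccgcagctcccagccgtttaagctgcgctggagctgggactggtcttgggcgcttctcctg

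RefSeq promoters were matched for 38 of the 44 genes, as 42 promoters. The RFX half-site was present in 14 of the 42 (33.3%), against 12.5% of 32851 RefSeq promoters of the same length. The MYB site was present in 19 (45.2%), against 23.3% of all promoters. The forkhead core TAAACA was found in 9 (21.4%) against 13.4%, and the cyclic AMP response element core TGACGT in 4 (9.52%) against 7.51%. A match is a description of letters in this window and not a bound site. Spag16 held 2 RFX half-sites. Of the 2 promoters listed for Tekt1, the one printed held 2 and the other 0. Dnaic2 held 1 and no MYB site, and Spag6l held 1 with 2 MYB sites. Counted per gene, the half-site was present in 13 of 38 (34.2%), against 14.1% of all genes. The MYB site was present in 18 (47.4%), against 25.9%. Among genes whose in vivo rise was called by 16.5 dpp, 4 of 21 with a promoter had the half-site and 9 the MYB site. Spag6l, Tekt1 and Spag16, printed above, are among these 4, so the printed promoters do not represent the early genes. Among genes first called at 21.5 dpp the counts were 6 and 5 of 13. Among the genes with no lasting rise in vivo they were 3 and 4 of 4, so the matches were not limited to genes that rose.

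Each array detected 35.6% to 43.9% of its probes. The signals used below are log2 values after background correction and quantile normalization. Each gene is represented by its brightest probe, and levels are compared between samples for the same probe only. Arrays of 4 groups stood apart from their labelled replicates. Over the 44 axoneme genes, the median log2 signal was 4.92, 5.06 and 7.24 on the day 4 culture arrays and 7.41, 6.47 and 5.02 on the day 9 culture arrays. It was 5.11 and 6.64 at 13.5 dpp in vivo and 7.56, 5.54 and 8.83 at 16.5 dpp in vivo. Replicate 2 of 9.5 dpp in vivo had the lowest share of detected probes. The median of 7 spermatocyte markers lay to the same side as the axoneme genes on the arrays of those 4 groups. That median was 11.1 on the high day 4 array and 8.66 on the low day 9 array. It was 10.4 on the low 16.5 dpp array and 7.65 on the low 13.5 dpp array. In the other groups the median of the axoneme genes spanned at most 0.82 (7.5 dpp in vivo). Results resting on these arrays are given with and without them, as chosen after seeing the data: 4 arrays (replicate 3 of day 4, replicate 3 of day 9, and replicate 2 of 9.5 and of 16.5 dpp in vivo), or 5 with replicate 3 of 13.5 dpp in vivo. With 5 left out, 13.5 dpp in vivo keeps 1 array and no count is given for it.

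**Figure D1:**
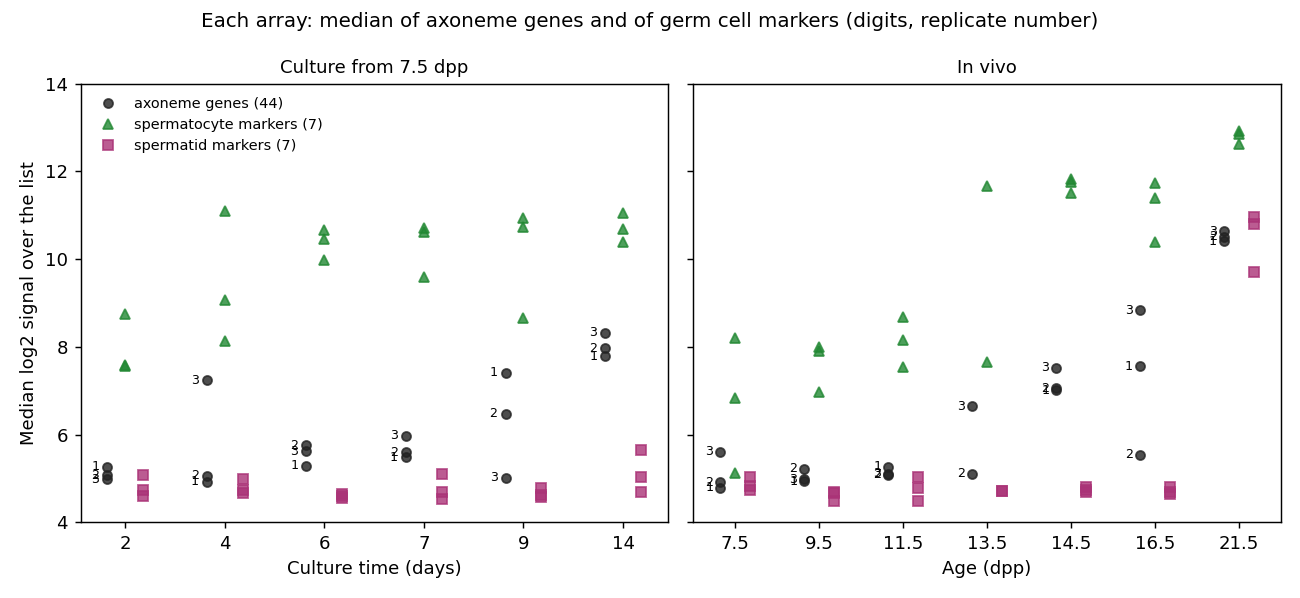
Median log2 signal on each array over the 44 axoneme genes (black circles, with the replicate number), 7 spermatocyte markers (green triangles) and 7 spermatid markers (magenta squares), by culture day on the left and by age in vivo on the right. The axoneme genes reached 7.78 to 8.32 after 14 days of culture and 10.41 to 10.64 at 21.5 dpp in vivo; the spermatid markers reached 4.68 to 5.65 and 9.7 to 10.96 on the same arrays.

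Testis in vivo had gained axoneme transcripts by 14.5 dpp and had gained more by 21.5 dpp. A gene was called changed when limma's adjusted p was below 0.05 over all 12518 genes and the difference was at least 2-fold. Against 7.5 dpp, 0 of the 44 genes were called higher at 9.5 dpp, where 1.37% of all genes were, and 0 at 11.5 dpp, where 2.41% were. At an unadjusted p below 0.05, limma had 2 and 3 higher at these ages. Rsph1 alone was called at 13.5 dpp (3.67% of all genes). At 14.5 dpp 22 were called higher (7.41% of all genes), at 16.5 dpp 24 (7.37%) and at 21.5 dpp 40 (20.2%). The median difference of the 44 genes from 7.5 dpp was 1.38 at 14.5 dpp and 4.89 at 21.5 dpp on the log2 scale, against -0.04 and -0.34 over all genes. None was called lower at 9.5 dpp (0.735% of all genes lower), 11.5 dpp (1.97%), 13.5 dpp (4.17%) or 14.5 dpp (6.93%), with 3, 2, 1 and 2 at an unadjusted p below 0.05 in limma. Dnah11 was called lower at 16.5 dpp (6.96%) and 21.5 dpp (28.7%). The detection rule uses the same arrays, so genes that passed it only through the 21.5 dpp arrays had to differ there. These were 7 genes: Cfap97d1, Cfap100, Dnah1 and Dnaic2, detected on those 3 arrays and no other, Spag6, detected on 1 more, and Hydin and Tekt5, each detected on 2 more. Their values against 21.5 dpp are given below as a description with no p. Of the other 37 genes, 33 were called higher at 21.5 dpp.

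In culture, fewer genes were called at day 7 than in vivo at 14.5 dpp. None of the 44 genes was called higher than at 7.5 dpp on day 2 (4.86% of all genes; 2 at an unadjusted p below 0.05 in limma). There were 3 on day 4 (5.83%), 3 on day 6 (4.52%) and 3 on day 7 (4.45%). Day 9 had 10 (6.49%) and day 14 had 30 (8.61%). The median difference from 7.5 dpp was 0.23 on day 7 and 2.44 on day 14. Cfap20dc was called lower on days 2 (4.31% of all genes lower), 4 (5.66%), 6 (4.2%), 7 (4.28%) and 9 (5.47%), and Dnah11 on day 14 (7.76%).

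Several of the middle counts rest on single arrays. The 13.5 dpp in vivo count was 6 with 4 arrays left out and 0 without replicate 1 of 7.5 dpp. Leaving out the 5 arrays, or replicate 2 or 3 of 13.5 dpp, leaves 1 array in that group, so no count is given. The 16.5 dpp count was 9 without its replicate 3, and 31 without its replicate 2 or with the 4 or the 5 arrays left out. Day 4 had 1 without its replicate 3 and with the 4 arrays left out. Day 6 had 9 and 11 with 4 and 5 arrays left out. Day 7 had 7 and 8 with these arrays left out, 1 without its replicate 2 or 3 or without replicate 2 of 7.5 dpp, and 0 without replicate 1 of 7.5 dpp. Day 9 had 23 without the 4 or the 5 arrays and 13 with the replicate number as a block. It had 19 without its replicate 3, 3 without its replicate 1, and 6 without its replicate 2 or without replicate 1 or 2 of 7.5 dpp. The counts at 14.5 and 21.5 dpp in vivo and on day 14 moved by less than 1.5 times on leaving out any 1 array. With the authors' deposited log2 values in place of the signals, however, the count was 12 at 14.5 dpp and 14 at 16.5 dpp.

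**Figure D2:**
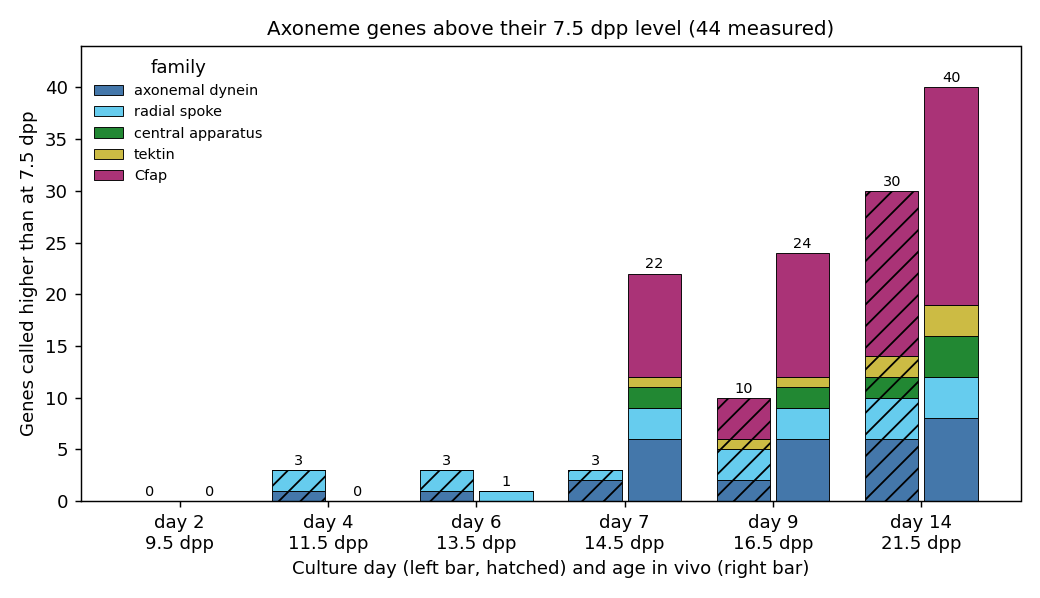
Number of the 44 axoneme genes called higher than at 7.5 dpp, stacked by family, with each culture day (left bar, hatched) beside the matching age in vivo (right bar). Culture stood at 3 on day 7 and 30 on day 14, against 22 at 14.5 dpp and 40 at 21.5 dpp in vivo. The 40 include 7 genes that passed the detection rule only through the 21.5 dpp arrays, where they had to differ.

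The onset of a gene was the first time from which it was called higher at every later time. In vivo this was 13.5 dpp for Rsph1, 14.5 dpp for 21 genes, 16.5 dpp for Cfap161 and Cfap221, and 21.5 dpp for 16 genes. It was reached by no time for 4 genes. Genes with an in vivo onset by 16.5 dpp are called early below, and those with one at 21.5 dpp late. This split depends on the 16.5 dpp arrays, where 31 genes were called without replicate 2 and 9 without replicate 3, in place of 24. In culture the onset was day 4 for Rsph1 and Dnaic1, day 7 for Tcte3, day 9 for 7 genes and day 14 for 20, with none for 14 genes. By detection on all arrays of a group from that time on, in place of the test, 8 genes were present in vivo from 7.5 dpp and 19 first at 21.5 dpp, and in culture 17 first on day 14 and 9 never.

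**Figure D3:**
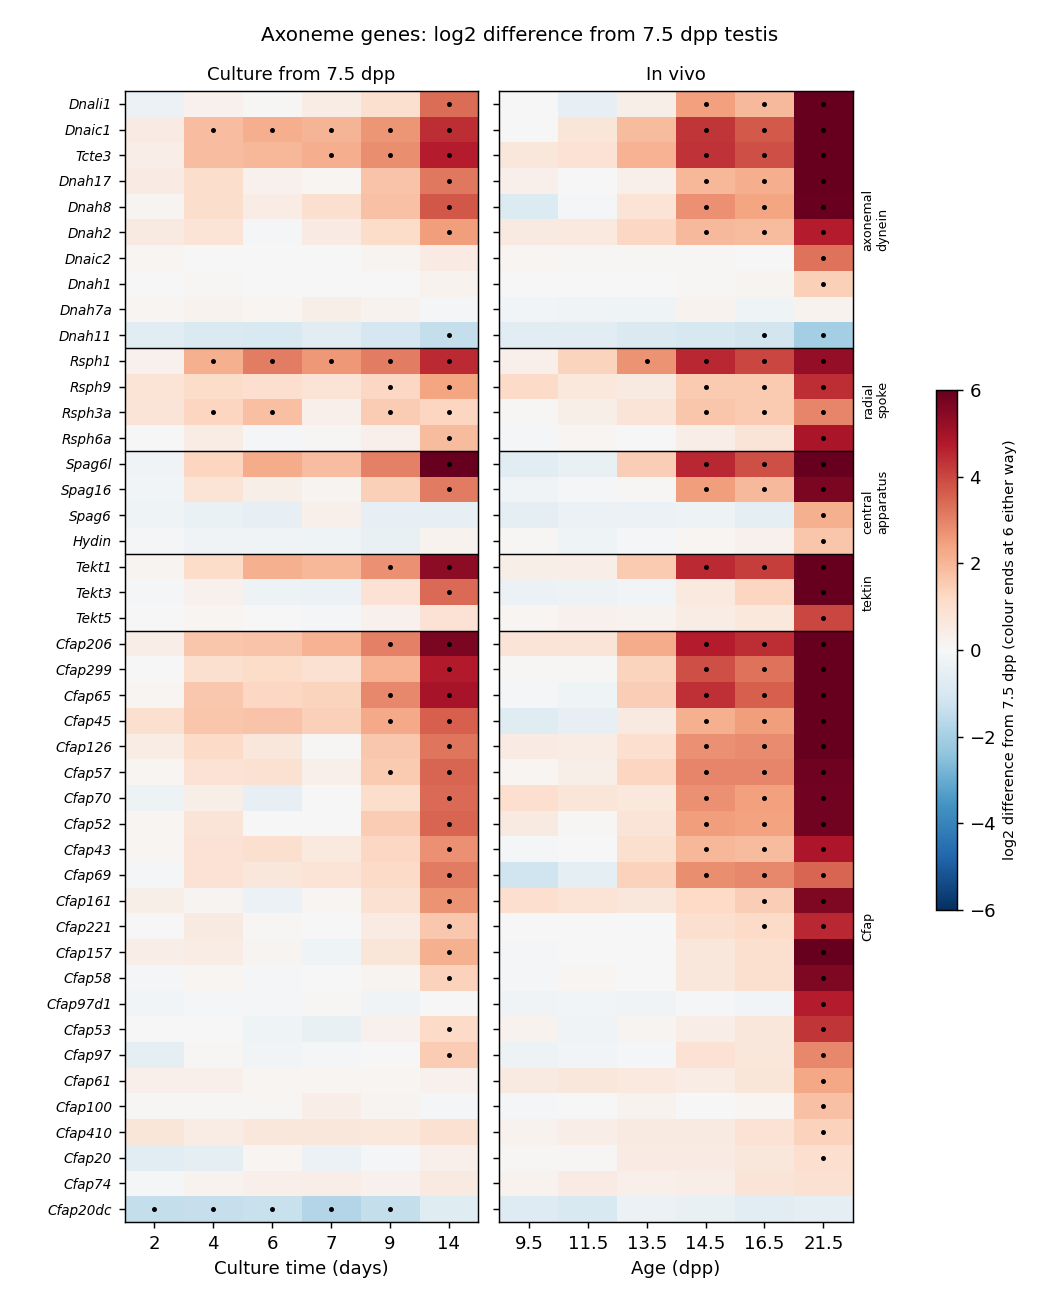
log2 difference from 7.5 dpp for each of the 44 genes, ordered by family, in culture (left, days 2 to 14) and in vivo (right, 9.5 to 21.5 dpp); red is higher, blue lower, a dot marks a called difference and the colour ends at 6. Genes at the top of each family carry dots from 14.5 dpp in vivo and by day 14 in culture; below them lie genes with a dot first at 21.5 dpp in vivo, of which 6 also have one on day 14; Dnah11 and Cfap20dc are blue.

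Radial spoke genes included Rsph1, the one gene called at 13.5 dpp in vivo. All 4 spoke genes rose by 21.5 dpp in vivo and by day 14 in culture. Rsph1, a protein of the spoke head, was detected on every array. In culture its log2 signal was 11.85, 12.80 and 13.12 on day 7 and 14.32, 14.45 and 14.67 on day 14, and in vivo it was 8.72, 10.60 and 10.65 at 7.5 dpp, 14.37, 14.54 and 14.56 at 14.5 dpp and 15.26, 15.29 and 15.23 at 21.5 dpp. Day 14 culture thus overlapped 14.5 dpp in vivo and lay below all 21.5 dpp arrays. Against 7.5 dpp the rise was 22.5-fold on day 14 (log2 4.49 ± 0.66, SE, n = 3 each; adjusted p = 5.98e-06, limma) and 38.6-fold at 21.5 dpp. The 1.71-fold gap between day 14 and 21.5 dpp did not pass the test (log2 -0.78 ± 0.66; adjusted p = 0.321, limma).

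Rsph9, also of the spoke head, and Rsph3a, of the spoke stalk, were detected on every array too. Rsph9 rose 5.11-fold by day 14 and 21.3-fold by 21.5 dpp in vivo, and culture was 4.17-fold below in vivo at that age (adjusted p = 0.000266, limma). Rsph3a rose 2.44-fold by day 14 and 7.50-fold in vivo. The mouse has a near-identical copy, Rsph3b, so its probe may read both. The fourth spoke gene, Rsph6a, a spoke head protein needed for the mouse sperm tail, was late. Its log2 signal was 4.45, 4.69 and 4.46 on day 7 and 5.69, 6.67 and 6.80 on day 14, against 4.66, 4.62 and 5.43 at 14.5 dpp and 9.28, 9.30 and 9.62 at 21.5 dpp in vivo. It was detected on 0 arrays on day 7, at 7.5 dpp and at 14.5 dpp, and rose at least 1.67-fold by day 14 and at least 13.5-fold by 21.5 dpp. Culture was 8.09-fold below in vivo at 21.5 dpp (log2 -3.02 ± 0.31; adjusted p = 1.44e-09, limma). Rsph4a, the spoke head protein of motile cilia, had a probe detected on 1 array and is not among the 44.

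Axonemal dyneins divided into 6 early genes, 2 late ones and 2 that did not rise. The early genes were the outer arm heavy chains of sperm Dnah8 and Dnah17, the inner arm chains Dnah2 and Dnali1, the outer arm intermediate chain Dnaic1 and the light chain Tcte3. All were called from 14.5 dpp in vivo and by day 14 in culture. Dnaic1 had log2 signals of 6.07, 7.20 and 7.74 on day 7 and 9.28, 9.03 and 9.82 on day 14 of culture, against 8.76, 9.46 and 9.49 at 14.5 dpp and 11.62, 11.65 and 11.47 at 21.5 dpp in vivo. At 7.5 dpp it had 4.55, 4.65 and 5.70 and was detected on 1 of 3 arrays. On day 14 it overlapped the level of 14.5 dpp in vivo and was 4.61-fold below that of 21.5 dpp (adjusted p = 0.00304, limma).

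Dnah8 and Dnah2 were 13.4-fold and 5.72-fold above 7.5 dpp on day 14, and 4.57-fold and 4.56-fold below in vivo at 21.5 dpp. Dnah17 had 4.56, 4.52 and 4.81 on day 7, where it was detected on 0 arrays, and 7.31, 7.61 and 8.12 on day 14, against 10.43, 10.43 and 10.69 at 21.5 dpp in vivo. Culture was 7.14-fold lower at that age (log2 -2.84 ± 0.66; adjusted p = 0.000491, limma), with no overlap. Among dyneins detected on all arrays of both groups the widest gap at 21.5 dpp was that of Dnali1, at 8.31, 8.58 and 9.04 on day 14 against 12.14, 12.06 and 11.91 in vivo (10.5-fold lower; adjusted p = 0.0001, limma). Tcte3, detected on every array, had 12.46, 12.99 and 13.46 on day 14 against 14.52, 14.60 and 14.79 in vivo. Its values did not overlap, but the 3.18-fold difference missed the threshold (adjusted p = 0.0662, limma). Tcte3 has near-identical copies in the mouse genome that its probe may also read.

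The late dyneins were Dnaic2, the partner of Dnaic1 in the outer arm, and Dnah1, an inner arm heavy chain whose loss in the mouse impairs sperm movement. Dnaic2 had log2 signals of 4.68, 5.0 and 5.07 on day 14 of culture, against 7.60, 7.65 and 7.74 at 21.5 dpp in vivo. It was detected on the 3 arrays of 21.5 dpp only, and culture was at least 4.85-fold lower. Dnah1 was likewise detected only at 21.5 dpp and was at least 1.38-fold lower in culture.

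The remaining dyneins took other courses. Dnah11, an outer arm heavy chain of nodal and airway cilia in the mouse, fell. It had 9.79, 9.91 and 9.68 on day 14 of culture and 9.47, 9.27 and 8.76 at 21.5 dpp in vivo, and 10.88, 11.35 and 11.41 at 7.5 dpp. The fall was 2.68-fold in culture (adjusted p = 3.1e-05, limma) and 4.15-fold in vivo (adjusted p = 6.64e-09, limma). The gene overlaps Cdca7l in the RefSeq annotation, for which no probe was kept. Dnah7a, an inner arm heavy chain with near-identical copies, lay between 5.26 and 6.42 on all 38 arrays, and no comparison with 7.5 dpp called it. Probes for Dnah5, Dnah6, Dnah9 and Dnah10 were detected on 0 arrays.

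**Figure D4:**
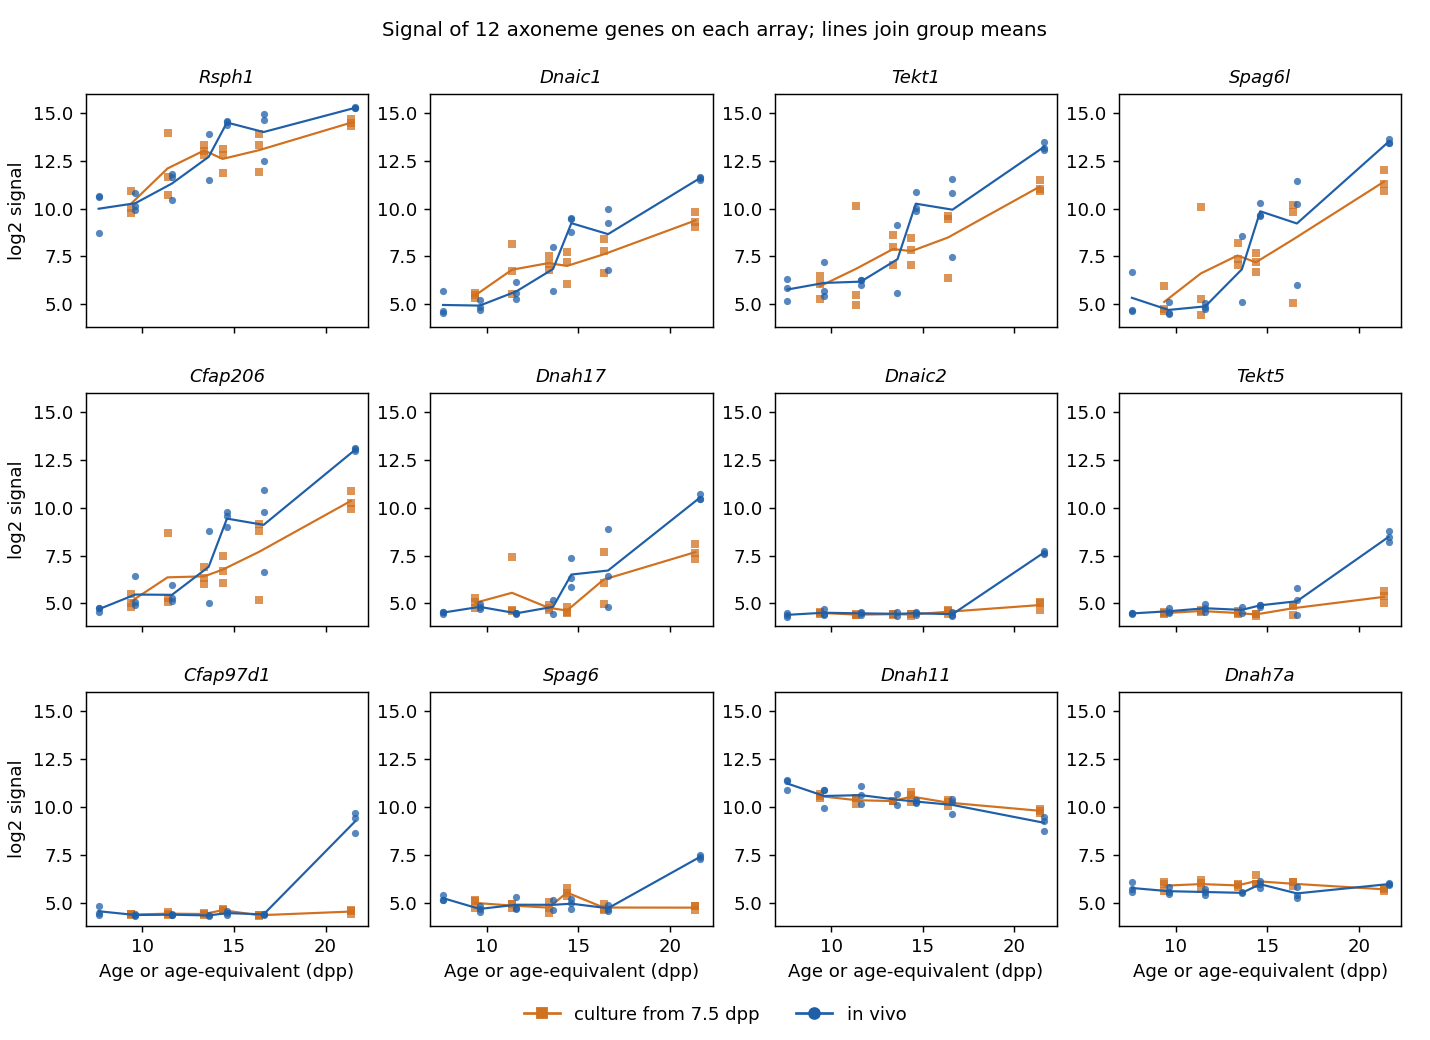
log2 signal on each array for 12 axoneme genes, in culture (orange squares) and in vivo (blue circles), against age or age-equivalent in dpp; lines join group means. Rsph1, Dnaic1, Tekt1, Spag6l and Cfap206 climb in both settings; Dnaic2, Cfap97d1 and Spag6 were called higher only at 21.5 dpp in vivo; Dnah11 declines and Dnah7a stays level.

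The central apparatus held early genes, Spag6l and Spag16, and late genes, Spag6 and Hydin. Spag6l and Spag16, whose products bind each other in the central apparatus of mouse sperm, rose at 14.5 dpp in vivo and by day 14 in culture. Spag6l had log2 signals of 6.69, 7.21 and 7.68 on day 7 and 10.93, 11.27 and 12.02 on day 14, against 9.68, 9.61 and 10.28 at 14.5 dpp and 13.40, 13.63 and 13.42 at 21.5 dpp in vivo. At 7.5 dpp it had 4.66, 4.69 and 6.67. Day 14 lay above all arrays of 14.5 dpp and below all of 21.5 dpp. The gap at 21.5 dpp did not pass the test for this probe (log2 -2.08 ± 1.18; adjusted p = 0.131, limma), and did for a second, dimmer probe of the gene (log2 -2.57 ± 0.65; adjusted p = 0.00126, limma). Spag16 had 7.72, 7.98 and 8.41 on day 14, against 10.65, 10.47 and 10.59 at 21.5 dpp in vivo (5.80-fold lower; adjusted p = 0.00346, limma), and its 4 probes were all called lower.

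Spag6, a close copy of Spag6l, and Hydin, a large protein of a central apparatus projection lost in hydrocephalic mice, were called only at 21.5 dpp. Spag6 had 4.61, 4.80 and 4.80 on day 14, against 7.27, 7.47 and 7.39 at 21.5 dpp in vivo. Culture was at least 3.98-fold lower, with no day 14 array detected. The 2 genes are alike in sequence, so a share of either signal may come from the other. Hydin was at least 2.38-fold lower in culture. Spag17 was detected on 0 arrays.

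Tektins are filament proteins bound along the doublet wall. Tekt1 was early. It had 7.04, 7.84 and 8.45 on day 7 and 11, 10.92 and 11.51 on day 14 of culture, against 9.88, 10.01 and 10.87 at 14.5 dpp and 13.05, 13.16 and 13.46 at 21.5 dpp in vivo. The 4.23-fold gap at 21.5 dpp did not pass for this probe (adjusted p = 0.0728, limma) and did for its second probe (log2 -2.30 ± 0.91; adjusted p = 0.0317, limma). Tekt3 was late in vivo and had 4.43, 4.54 and 4.51 on day 7 and 7.24, 8.60 and 8.99 on day 14, against 4.93, 5.14 and 6.23 at 14.5 dpp and 11.47, 11.52 and 11.49 at 21.5 dpp in vivo. Tekt5, a tektin of sperm tails, had 5.04, 5.37 and 5.63 on day 14, against 8.77, 8.45 and 8.20 at 21.5 dpp in vivo. Tekt3 rose at least 6.17-fold by day 14. Tekt5 was detected on 1 of the 3 day 14 arrays and its difference from 7.5 dpp was under 2-fold (log2 0.87 ± 0.21; adjusted p = 0.00175, limma). At 21.5 dpp culture was 9.31-fold lower for Tekt3 and 8.71-fold lower for Tekt5.

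The 23 Cfap genes held every pattern. In vivo 12 were called by 16.5 dpp, 9 first at 21.5 dpp and 2 at no time, and in culture 16 were called on day 14. Cfap206, whose Tetrahymena counterpart sits at the base of a radial spoke, was not detected at 7.5 dpp. It had 9.94, 10.23 and 10.89 on day 14 of culture, against 8.99, 9.54 and 9.76 at 14.5 dpp and 13.04, 13.11 and 12.94 at 21.5 dpp in vivo. Its rise from 7.5 dpp was at least 26.1-fold on day 14 and at least 167-fold at 21.5 dpp (log2 8.34 ± 0.93; adjusted p = 3.23e-09, limma). Cfap299 rose at least 16.5-fold and at least 125-fold in the same comparisons. Cfap45, Cfap52, Cfap126 and Cfap161, proteins of the inner doublet wall, rose in both settings. Culture was 5.05 to 8.01-fold below in vivo at 21.5 dpp in these 4 genes. Cfap43, Cfap65 and Cfap69, each needed for a normal sperm tail in mice, also rose in both. The value of Cfap69 at 21.5 dpp rests on arrays of 7.03, 11.46 and 11.76, of which the first stood apart.

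The other early Cfap genes, Cfap57 and Cfap70, had levels of 7.66, 7.97 and 8.30 (Cfap57) and 9.37, 9.41 and 9.82 (Cfap70) on day 14, and culture was 5.16-fold and 5.29-fold below in vivo at 21.5 dpp. Cfap221, a central apparatus protein, was called from 16.5 dpp, where it had 5.36, 4.35 and 7.03 and was detected on 1 of 3 arrays. It had 5.95, 5.79 and 6.32 on day 14 against 8.95, 9.03 and 8.83 at 21.5 dpp in vivo. Its 7.54-fold gap (adjusted p = 1.26e-07, limma) was as wide as those of some late genes.

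The late Cfap genes included those with the widest gaps between culture and tissue. Cfap97d1, needed to keep the mouse sperm axoneme intact, had 4.40, 4.57 and 4.63 on day 14, against 9.41, 9.70 and 8.64 at 21.5 dpp in vivo. It was detected on no other array than those 3, and culture was at least 14.6-fold lower. Cfap58, whose loss in mice disrupts the tail, had 5.79, 5.68 and 6.59 on day 14 against 10.28, 10.35 and 10.08 (18.6-fold lower; adjusted p = 4.86e-13, limma). Cfap157, a basal body protein required for mouse sperm tails, had 6.67, 7.50 and 7.82 against 11.23, 11.24 and 11.40 (15.5-fold lower; adjusted p = 1.82e-10, limma). Among genes detected on all day 14 and all 21.5 dpp arrays, Cfap58 and Cfap157 had the largest gaps of the 44.

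Cfap53, another inner protein of the doublet, had 6.42, 6.76 and 7.26 on day 14 against 10.03, 9.83 and 9.89 at 21.5 dpp in vivo (8.60-fold lower; adjusted p = 1.25e-10, limma). Cfap61, whose loss in mice deforms the sperm tail, had 4.71, 4.61 and 5.38 against 6.78, 6.87 and 7.23 and was detected on 1 of 3 day 14 arrays (4.17-fold lower). Cfap100 had 4.39, 4.43 and 4.39 against 6.22, 6.51 and 6.04 and was at least 1.83-fold lower. The changes of Cfap20 and Cfap410 were small, at 2.03-fold and 2.64-fold above 7.5 dpp at 21.5 dpp in vivo, and neither was called on day 14. Cfap74, of the central apparatus, was called in no comparison with 7.5 dpp and was detected on 1 day 14 array and 2 arrays of 21.5 dpp.

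Cfap97 was detected on every array, at 11.96, 12.28 and 12.41 on day 14 against 13.65, 13.67 and 13.49 at 21.5 dpp in vivo, and culture was 2.61-fold lower. Another of its probes, also detected on all 38 arrays, was not called (log2 0.35 ± 0.27), so the probes of this gene disagree. Cfap20dc was the one gene called lower in culture than at 7.5 dpp from day 2 to day 9. It had 4.88, 4.77 and 4.95 on day 2, against 5.67, 5.09 and 5.87 at 9.5 dpp and 6.57, 6.18 and 6.19 at 7.5 dpp in vivo. Its mean in vivo also fell, from 6.31 at 7.5 dpp to 5.54 at 9.5 dpp, and culture was not called different from in vivo at 9.5 dpp. The gene was detected on 0 culture arrays from day 2 to day 9, at least 1.47-fold below 7.5 dpp on day 7 (adjusted p = 1.14e-06, limma). On day 14 it had 5.70, 5.64 and 5.47 and was detected on 3 of 3 arrays.

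At matched ages, 32 of the 44 genes were called lower in culture than in tissue at 21.5 dpp. Before 14.5 dpp few of the 44 were called different, as few of all genes were. At 9.5, 11.5 and 13.5 dpp, 21, 9 and 14 of the 44 were detected on no array of either group. For those genes the lack of a call says little. Of the 44 genes, 0 were called lower in culture at 9.5 dpp (4.02% of all genes) and 0 at 11.5 dpp (4.02%), with 2 at each age at an unadjusted p below 0.05 in limma. Cfap45 was called higher in culture at 11.5 dpp (3.93% of all genes higher), at 7.12, 7.10 and 8.61 against 5.68, 5.35 and 5.41 in vivo. At 13.5 dpp Cfap20dc and Dnah2 were called lower (2.72%). At 14.5 dpp 18 were lower (5.74%), at 16.5 dpp 0 (3.16%; 9 at an unadjusted p below 0.05 in limma) and at 21.5 dpp 32 (15.9%). None was called higher in culture at 9.5 dpp (4.69% of all genes higher), 13.5 dpp (4.07%), 14.5 dpp (5.56%), 16.5 dpp (5.18%) or 21.5 dpp (20%), with 2, 1, 2, 1 and 1 at an unadjusted p below 0.05 in limma.

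The count at 14.5 dpp was 20 with the replicate number as a block, 6 and 11 without replicates 1 and 2 of day 7, and 8 and 11 without replicates 3 and 2 of 14.5 dpp. That at 13.5 dpp was at most 1 without replicate 1 or without replicate 2 of day 6. At 11.5 dpp, 1 gene was lower with the 4 or the 5 arrays left out. The count at 16.5 dpp was 14 without replicate 2 of 16.5 dpp and 2 without replicate 1 of day 9, and 8 and 12 with 4 and 5 arrays left out. The count at 21.5 dpp lay between 32 and 33 on leaving out any 1 array and was 36 with 4 or 5 left out.

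The deficit of culture at 21.5 dpp covered all families. Called lower were 7 of 10 dyneins, 3 of 4 spoke genes, 3 of 4 central apparatus genes, 2 of 3 tektins and 17 of 23 Cfap genes. These include all 7 genes that only the 21.5 dpp arrays brought past the detection rule, and 25 of the other 37. The median difference over the 44 genes was -2.20 on the log2 scale, against 0.25 for all genes. In 40 of the 44 (90.9%) every day 14 array lay below every 21.5 dpp array, as did 27.7% of all genes. The 40 and the median also include those 7 genes, which had to be high at 21.5 dpp to pass the rule. The 4 genes that overlapped were Cfap20dc, Cfap69, Cfap74 and Dnah11. Of the 12 genes not called, the differences of Spag6l, Tekt1, Cfap65 and Tcte3 were between -1.67 and -2.08, and their day 14 and 21.5 dpp arrays did not overlap.

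Set against tissue a week younger, in a comparison added after seeing the data, few of the 44 genes were called different. The difference was above 0 for 35 genes and below 0 for 9. Called higher than at 14.5 dpp in vivo were 3 genes (2.08% of all genes) and lower 0 (1.04%). At an unadjusted p below 0.05 in limma these were 11 and 0. The 3 called genes were Tekt3 (7.18-fold; adjusted p = 0.00107, limma), Cfap157 (2.71-fold; adjusted p = 0.0165, limma) and Rsph6a (at least 1.67-fold; adjusted p = 0.0028, limma). With 4 and 5 arrays left out there were 5 and 6. The median difference was 0.57, and in 22 of the 44 genes (50%) every day 14 array lay above every 14.5 dpp array, against 15.9% of all genes. A difference that misses the threshold does not show that the levels were the same.

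Early and late genes differed over the second week, in part through the detection rule. In vivo, 36 genes rose between 14.5 and 21.5 dpp (15.9% of all genes) and Dnah11 fell (20.3%). In culture 30 rose between day 7 and day 14 (6.15% of all genes) and 0 fell (3.95%; 4 at an unadjusted p below 0.05 in limma). Of the 24 genes with an in vivo onset by 16.5 dpp, 23 rose in the second week of culture, with a median log2 difference of 2.86, and the other, Rsph3a, stayed under 2-fold (0.97 ± 0.36). Of the 16 genes with an onset at 21.5 dpp, 6 rose (Cfap53, Cfap58, Cfap97, Cfap157, Rsph6a and Tekt3), and the median of the 16 was 0.55. The remaining gene that rose was Cfap20dc. The grouping comes from the in vivo arrays, whose means this culture step does not use. The fit shares an estimate of each gene's spread over all groups, so the grouping and the culture calls are not independent. In addition, 7 of the 16 late genes passed the detection rule only through the 21.5 dpp arrays, and 0 of these 7 rose in culture. The rule admits them only as genes near background elsewhere, so their lack of a rise is a description.

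The change over this week itself differed between culture and tissue for 15 genes. It was smaller in culture for 14 (12.2% of all genes) and larger for Cfap20dc (14.8%). Of the 14, 13 were late genes and 1 was the early gene Cfap221. All 7 genes that passed the detection rule only through the 21.5 dpp arrays are among the 14, which leaves 7 of the other 37. The late genes Cfap20, Cfap97 and Cfap410 did not pass. For the 24 early genes the median difference in change was -0.11, while 16 of them were called lower in culture at the start of that week. For the late genes it was -2.26. The early and late groups were defined on in vivo arrays that enter this difference, so the contrast between them is a description.

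**Figure D5:**
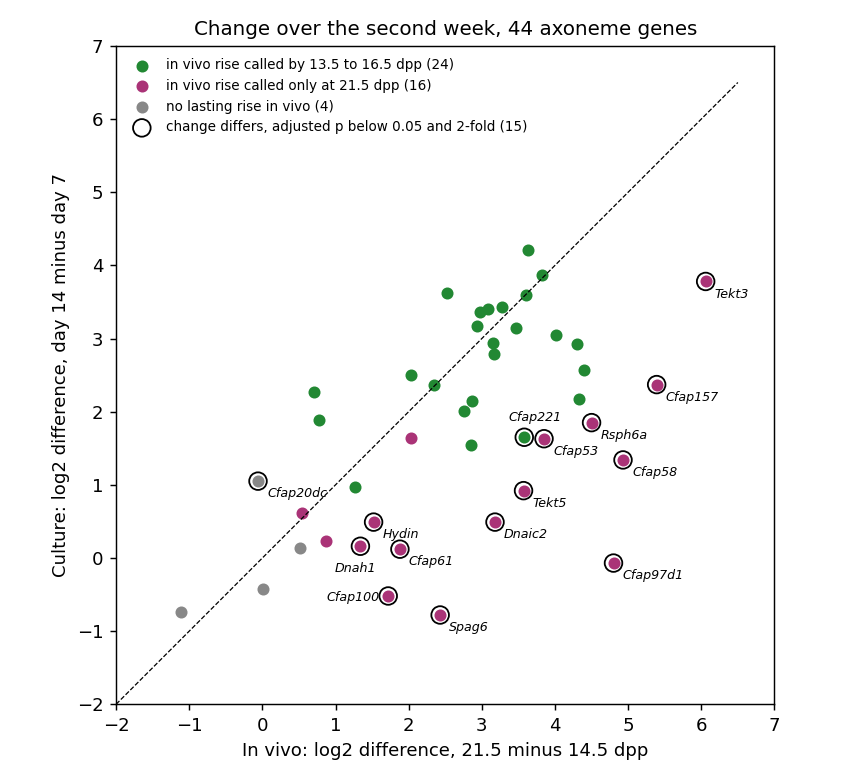
log2 change of each of the 44 genes from day 7 to day 14 in culture (vertical) against that from 14.5 to 21.5 dpp in vivo (horizontal), coloured by in vivo onset; the dashed line marks equal change and rings mark the 15 genes whose change differed. The 24 early genes (green) lie on both sides of the line, and 13 of the 16 late genes (magenta) are ringed below it.

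Other genes of axoneme assembly, docking and transport were read from lists that hold none of the 44 genes. The shares of all genes called in each comparison are those given above. Of 11 dynein assembly factors, 7 were measured. On day 14, 5 were higher than at 7.5 dpp, and at 21.5 dpp 5 were lower in culture and 1 higher. Zmynd10 rose at least 24.6-fold and Lrrc6 at least 4.89-fold by day 14, and the log2 difference of Lrrc6 from in vivo at 21.5 dpp was -2.34 ± 0.57. Dnaaf1 went the other way, at 1.13 ± 0.15 log2 units higher in culture at 21.5 dpp, where it fell in vivo relative to 7.5 dpp (-1.31 ± 0.15). Of 15 docking and nexin-dynein regulatory complex genes, 13 were measured, 10 rose by day 14 and 12 were lower in culture at 21.5 dpp. In this list Armc4, detected on 5 arrays in all, and Ttc25, on 3, passed the detection rule only through 21.5 dpp in vivo. Both had to differ there. Ccdc39, a ruler of doublet repeats, rose by 4.03 ± 0.72 in culture and 6.01 ± 0.72 in vivo on the log2 scale. The widest gaps of this list at 21.5 dpp were those of Armc4 (log2 -3.31, a description for that reason), Tcte1 (-3.23 ± 0.23) and Iqca (-3.03 ± 0.23). Iqca differed by -0.10 ± 0.23 on day 14 from 7.5 dpp and was not called.

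Of 18 genes of intraflagellar transport, 15 were measured, 6 rose by day 14, 11 by 21.5 dpp in vivo, and 5 were lower in culture at 21.5 dpp. Of 21 other axoneme parts 13 were measured, 8 rose by day 14 and 10 were lower at 21.5 dpp. Among these parts Ropn1, detected on 3 arrays in all, and Dydc1, on 5, passed the detection rule only through 21.5 dpp in vivo. Of 10 transcription factors linked to axoneme genes, 9 were measured. Rfx2, Rfx4, Crem and Tcfl5 rose by day 14, by 2.98 ± 0.44, 4.33 ± 0.80, 3.59 ± 0.51 and 1.77 ± 0.28 log2 units. Sox5, which rose by 3.95 ± 0.27 in vivo, had a log2 difference of -0.36 ± 0.27 from 7.5 dpp on day 14 and of -4.32 ± 0.27 from in vivo at 21.5 dpp (adjusted p = 1.18e-14, limma). Foxj1, the master factor of motile cilia outside the germ line, was not called in any of these comparisons. Its probe was detected on 5 arrays in all, so the lack of a call says little about this gene.

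Germ cell markers also changed, in part at other times than the axoneme genes, and their part in the differences was not tested. Levels are compared over time within each list, not between lists. The median of 7 spermatocyte markers was 5.13, 6.84 and 8.19 at 7.5 dpp in vivo and 9.59, 10.61 and 10.7 on day 7 of culture. That of the 44 axoneme genes was 4.79, 4.91 and 5.61 at 7.5 dpp and 5.48, 5.6 and 5.97 on day 7. The median of 7 spermatid markers was 4.83, 4.74 and 5.03 at 7.5 dpp and 4.69, 4.81 and 4.73 at 14.5 dpp in vivo. At 14.5 dpp the median of the axoneme genes was 7.01, 7.05 and 7.52. All 7 measured spermatocyte markers (of 8 listed) were higher on day 14 than at 7.5 dpp, and 2, Ccna1 and Pgk2, were lower in culture at 21.5 dpp. All 7 measured spermatid markers (of 10) were lower in culture at 21.5 dpp, with a median log2 difference of -5.42. Of these, Prm1 and Tssk2 were detected on 3 arrays in all, Acrv1 on 4 and Spaca7 on 5. They passed the detection rule only through 21.5 dpp in vivo and had to differ there. The count and the median are therefore a description. Prm1, a sperm protamine, and Tssk2 were not detected on any day 14 array. The median of the 7 spermatid markers on day 14 was 4.68, 5.03 and 5.65, against 10.81, 10.96 and 9.70 at 21.5 dpp in vivo. Of 8 genes of multiciliated cells outside the germ line 3 were measured: Deup1, Ccno and Foxa1. Deup1, detected on 3 arrays, rose at 21.5 dpp in vivo, and Ccno fell on day 14 of culture (log2 -1.0 ± 0.25). Foxa1 was called in no comparison, but it was detected on 3 arrays in all, so this says little. Deup1 passed the detection rule through the 21.5 dpp arrays, so its rise is a description. Somatic markers also differed between culture and in vivo at 21.5 dpp. Of those measured, 2 of 3 Leydig markers were lower, and 2 of 3 Sertoli, 1 of 2 macrophage, 1 of 2 peritubular and 1 of 3 spermatogonial markers were higher.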

How the data were processed

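Total RNA of whole testis was profiled on single-colour Illumina arrays. The deposited signal table holds, per the file headers, 1 bead intensity and 1 detection p-value for each of 45281 probes and array, not normalized. The authors' deposited series table holds log2 values with equal column medians of 7.47, made with lumi per the submitters' processing notes (steps, version and scanner software not given in the sources used here), and was used as an alternative. Signal columns were matched to samples by name. Replicate 1 of 13.5 dpp in vivo had no matching signal column, and 1 column matched no sample and was not used. This left 38 of 39 samples in 13 groups.

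Intensities were background-corrected and quantile normalized with neqc (limma 3.58.1, R 4.3.3; offset 16, detection p-values for the negative controls). Probes were kept when the detection p-value was below 0.01 on 3 or more arrays (23665). Of these, 19924 had exactly 1 gene symbol in the platform annotation, and the brightest probe of each of 12518 genes was tested. Among the 44 axoneme genes 14 had several kept probes. Their calls disagreed for 3 genes at 21.5 dpp and 5 on culture day 14, both against 7.5 dpp, and none were opposite. A single limma fit with a mean for each group gave every contrast (eBayes with its trend option, residual degrees of freedom 25), with Benjamini-Hochberg adjustment over all genes. A call needed an adjusted p below 0.05 and a 2-fold difference. The ± values are standard errors from this fit. The script was tested on simulated data.

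Where a probe was not detected on any array of a group, "at least N-fold" sets the other group's mean against, per array, the higher of the lowest detected signal and the probe's own. Precision is limited by how many arrays each group has. All 44 genes could be named; in each family those given in full were the first and last to appear and those with the largest culture differences. Signals of different probes were not ranked against each other. The genes, companion lists and markers were chosen with earlier results of these data known. Alternatives were other background correction, scaling, detection filter, probe choice, fold threshold and variance model, the authors' values, a replicate block, and arrays left out. Deviations of arrays with the same replicate number from their group means had a median correlation of 0.021 over 222 pairs (-0.53 to 0.63), against -0.015 for 444 pairs with different numbers, so the numbers were not taken to pair samples.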

Additional observations from a re-analysis of the deposited data

Results flagged for a closer look

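The change between 14.5 and 21.5 dpp (in culture, between day 7 and day 14) differed between culture and in vivo by an interaction term in limma's fit for 15 of the 44 genes. Each value below is the culture change minus the in vivo change on the log2 scale, with its standard error and limma's adjusted p. Of the 15, 7 genes passed the detection rule only through the 21.5 dpp arrays in vivo, where they had to be high, and are given as a description with no p. Their values were -4.88 for Cfap97d1, -3.22 for Spag6, -2.69 for Dnaic2, -2.65 for Tekt5, -2.24 for Cfap100, -1.18 for Dnah1 and -1.03 for Hydin.

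Cfap58 differed by -3.58 ± 0.43 (adjusted p = 7.96e-08) and Cfap157 by -3.02 ± 0.52 (adjusted p = 3.23e-05), although both also rose in culture, by 1.34 and 2.37. Cfap53 differed by -2.22 ± 0.40 (adjusted p = 6.3e-05), Cfap221 by -1.93 ± 0.54 (adjusted p = 0.00489) and Cfap61 by -1.75 ± 0.29 (adjusted p = 2.09e-05).

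The spoke gene Rsph6a differed by -2.65 ± 0.44 (adjusted p = 1.72e-05), with changes of 1.85 in culture and 4.50 in vivo. The tektin Tekt3 differed by -2.28 ± 0.77 (adjusted p = 0.0192). Cfap20dc alone differed the other way, by 1.11 ± 0.31 (adjusted p = 0.0052), with changes of 1.05 in culture and -0.06 in vivo.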

How the results depend on the processing

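The counts of the 44 genes higher at 21.5 dpp (40) and on day 14 (30) than at 7.5 dpp, lower in culture at 21.5 dpp (32), higher at 21.5 than 14.5 dpp (36), higher on day 14 than day 7 (30) and with a smaller change in culture (14) stayed within 1.5 times of these under every alternative run. Other counts moved. With the authors' values, of 38 or of all 39 arrays, 12 genes were higher at 14.5 dpp, 14 at 16.5 dpp, 1 on day 4, 1 on day 7 and 4 on day 9, 0 and 9 were lower in culture at 13.5 and 14.5 dpp, and 1 was higher on day 14 than at 14.5 dpp. With no fold threshold there was 1 higher at 11.5 dpp, 1 on day 2 and 5 on day 7, and 2 and 4 lower in culture at 9.5 and 16.5 dpp. Counting all probes gave 1 higher at 11.5 dpp and 3 lower in culture at 16.5 dpp. With no detection filter day 9 had 6 and culture 1 lower at 13.5 dpp. With no background correction, 0 were lower in culture at 13.5 dpp and 1 higher on day 14 than at 14.5 dpp, and median centring gave 0 at 13.5 dpp. With 4 arrays left out there were 6 higher at 13.5 dpp, 1 on day 4, 9 on day 6, 7 on day 7, 23 on day 9 and 5 on day 14 against 14.5 dpp, and 1 and 8 lower in culture at 11.5 and 16.5 dpp. With 5 left out there were 1 higher at 11.5 dpp, 11 on day 6, 8 on day 7 and 23 on day 9. There were 6 higher on day 14 than at 14.5 dpp, and 1 and 12 lower in culture at 11.5 and 16.5 dpp. In that setting 13.5 dpp in vivo had 1 array, so its counts are not given.

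Leaving out 1 array gave 0 to 1 genes higher at 9.5 dpp and 0 at 11.5 dpp. It gave 19 to 22 at 14.5 dpp, 9 to 31 at 16.5 dpp and 39 to 40 at 21.5 dpp. It gave 0 on day 2, 1 to 4 on day 4, 2 to 3 on day 6, 0 to 3 on day 7, 3 to 19 on day 9 and 28 to 31 on day 14. Lower in culture were 0 at 9.5 and 11.5 dpp, 6 to 17 at 14.5 dpp, 0 to 14 at 16.5 dpp and 32 to 33 at 21.5 dpp. No range is given for 13.5 dpp, where leaving out either in vivo array leaves 1. The steps had 34 to 36 (21.5 against 14.5 dpp), 25 to 31 (day 14 against day 7), 2 to 3 (day 14 against 14.5 dpp) and 13 to 15 (difference in change). With the replicate number as a block, 13 genes were higher on day 9 and 20 lower in culture at 14.5 dpp, and the other counts were those of the fit without it, such as 40 at 21.5 dpp and 32 lower in culture. Of 282 single calls, all 282 held under the block, 280 with 4 or 5 arrays left out, 272 with median centring, 271 with no detection filter, 243 with no background correction and 184 with the authors' values, and none reversed. Median centring moved the median of all genes on day 14 against day 7 to -0.22, and gave 28 higher and 2 lower. The causes of these moves were not tested. Where a probe was not above background on any array of a group, a fold is a lower bound.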
